A study of Mus musculus with 12 samples.

Results

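The NRF2 pathway and its neighbours in redox defense were followed through 10 genes in epididymal white adipose tissue (eWAT) of mice. The genes are Nfe2l2, Keap1, Nqo1, Txnrd1, Srxn1, Prdx1, Sod1, Sod2, Sod3 and Cat, out of 23132 genes with a summed value. They are a list of names set with earlier results of these data known, and the rule used no measured value. By gene symbol 9 of the 10 were found in the deposited values. Sod2 was found only by its Ensembl transcript, ENSMUST00000007012, because its rows there carry the name of another gene, Rps6ka2. All 10 passed the filter on low values and were tested.

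The study asked how a chrysanthemum leaf ethanol extract and its flavonoid luteolin act on diet-induced obesity. RNA was sequenced from 12 libraries, with 3 male C57BL/6J mice in each of 4 groups, all 21 weeks old and housed singly. From 5 weeks of age the mice ate for 16 weeks a normal diet (ND), a high-fat diet (HFD), the high-fat diet with 1.5% (w/w) of the leaf extract (CLE) or the high-fat diet with 0.003% (w/w) luteolin (LU). CLE and LU mice thus carried the high-fat diet as well, and the CLE and LU comparisons against HFD share the same HFD mice, while all comparisons against ND share the same ND mice. The 3 mice of a group were picked by the authors as representative of a larger group, and whole tissue was extracted. In such bulk tissue, fewer cells of a type and less RNA per cell cannot be told apart.

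NRF2, the protein of Nfe2l2, is a transcription factor that KEAP1 holds in the cytoplasm and hands to a CUL3 ubiquitin ligase for breakdown. Oxidants and electrophiles modify cysteines of KEAP1, after which NRF2 enters the nucleus, pairs with small MAF proteins and binds the antioxidant response element of its target genes. Much of this control acts on the protein, so the mRNA of Nfe2l2 and Keap1 is not a measure of NRF2 activity. Superoxide dismutases turn superoxide into hydrogen peroxide, which catalase, peroxiredoxins and glutathione peroxidases then remove.

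The antioxidant response element core, TGACNNNGC on either strand (GCNNNGTCA when read on the opposite strand), was searched in the promoter windows of RefSeq, which run from 250 bases before to 50 bases after each start site (build GRCm38.p6). Of the 10 genes, 9 had a window and some had more than 1, which gave 11 windows, and 5 of these held the letters (45.5%). Over all 32851 windows the share was 12.4%, and among the wider redox genes described further on it was 15.2%. The 5 windows with a match are shown because they belong to the regulator Nfe2l2 and to 4 genes with differing responses to diet, with the match in capitals and each sequence written 5′ to 3′ on the strand of its gene.
Nfe2l2, chr2:75704614-75704913, minus strand: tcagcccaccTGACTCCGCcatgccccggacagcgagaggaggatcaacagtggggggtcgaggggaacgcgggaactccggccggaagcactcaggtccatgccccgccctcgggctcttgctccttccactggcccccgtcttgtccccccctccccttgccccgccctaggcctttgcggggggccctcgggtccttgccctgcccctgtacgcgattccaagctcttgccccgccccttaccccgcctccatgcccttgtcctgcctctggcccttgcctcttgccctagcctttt
Txnrd1, chr10:82858956-82859255, plus strand: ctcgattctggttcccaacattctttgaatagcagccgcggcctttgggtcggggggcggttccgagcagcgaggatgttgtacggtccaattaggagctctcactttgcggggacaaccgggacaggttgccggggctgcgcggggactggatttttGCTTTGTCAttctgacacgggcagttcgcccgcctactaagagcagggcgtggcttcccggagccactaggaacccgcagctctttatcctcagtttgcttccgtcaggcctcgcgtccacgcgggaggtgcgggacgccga
Srxn1, chr2:152105274-152105573, plus strand: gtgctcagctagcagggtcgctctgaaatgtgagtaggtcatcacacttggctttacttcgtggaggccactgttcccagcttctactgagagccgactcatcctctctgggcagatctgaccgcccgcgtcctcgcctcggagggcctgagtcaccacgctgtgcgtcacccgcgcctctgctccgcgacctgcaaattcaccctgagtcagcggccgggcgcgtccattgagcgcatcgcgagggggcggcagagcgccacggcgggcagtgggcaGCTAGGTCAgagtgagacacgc
Prdx1, chr4:116685349-116685648, plus strand: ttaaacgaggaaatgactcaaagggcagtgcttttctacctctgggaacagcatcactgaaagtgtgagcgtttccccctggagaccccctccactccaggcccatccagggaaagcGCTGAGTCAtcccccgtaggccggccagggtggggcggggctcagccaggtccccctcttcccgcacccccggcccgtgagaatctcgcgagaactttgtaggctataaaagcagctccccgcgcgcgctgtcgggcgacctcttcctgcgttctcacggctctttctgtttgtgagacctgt
Sod1, chr16:90220512-90220811, plus strand: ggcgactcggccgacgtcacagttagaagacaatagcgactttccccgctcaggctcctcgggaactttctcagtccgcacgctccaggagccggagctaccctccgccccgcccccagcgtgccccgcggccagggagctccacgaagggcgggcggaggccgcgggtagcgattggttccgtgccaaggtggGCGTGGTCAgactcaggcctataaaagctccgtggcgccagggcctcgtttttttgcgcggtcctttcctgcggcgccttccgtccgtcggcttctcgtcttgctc

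The match began 240 bases before the start in Nfe2l2, 92 before in Txnrd1, 133 before in Prdx1 and 56 before in Sod1, and 28 after the start in Srxn1. In Prdx1 the core also contains TGAGTCA, an AP-1 site, so both motifs overlap there. Windows of Keap1, Nqo1, Sod2 and Cat and the other start sites of Txnrd1 lacked the letters within these 300 bases. A match is a run of letters and was not tested for binding.

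Values are FPKM, fragments per kilobase of transcript scaled to the mapped total, summed over the transcripts of a gene. Fold changes were fitted on log2(FPKM + 1), so that those of weakly expressed genes are understated. A gene was called when its Benjamini-Hochberg adjusted p from limma was under 0.05 and its fold change over 1.5, and the words rose and fell are kept for called genes. The read depth behind the FPKM is unknown, and the total over genes was 438190 to 458412 FPKM per library. Correlations between libraries of a group were 0.978 to 0.991. For ND mouse 4 the header reads MD4, and its assignment is an inference. A letter R of unknown meaning stands in the headers of ND mouse 3, ND mouse 4, CLE mouse 4 and LU mouse 2, and in none of HFD. As a covariate the letter had 0 of 12813 genes at a limma adjusted p under 0.05 (526 at an unadjusted p under 0.05), and its lowest unadjusted p among the 10 genes was 0.0678 for Cat.

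The tissue carried the defining markers of adipocytes, and the summed levels of several marker lists differed between diets. The summed FPKM of 8 of 8 macrophage markers was 338 to 517 in ND, 2266 to 2627 in HFD, 592 to 861 in CLE and 943 to 1050.2 in LU. All 8 were called higher in HFD than in ND, beside 14.9% of all genes tested. All 8 were called lower in CLE and in LU than in HFD, beside 10.2% and 7.68%. The sum of 8 adipocyte markers was 28702 to 29922 in ND, 15415 to 17503 in HFD, 24457 to 26970 in CLE and 23062 to 28592 in LU. Of these, 7 of 8 were called lower in HFD than in ND, beside 10.8% of all genes. Against HFD, 7 of 8 were called higher in CLE and 3 of 8 in LU, beside 6.34% and 4.77%. Of the 6 endothelial markers 2 were called lower in HFD than in ND, and of the 6 progenitor or fibroblast markers 2 were called higher. In CLE and LU against HFD, 3 and 4 of the endothelial markers were called higher. In each, 2 of the progenitor or fibroblast markers were called lower. Red blood cell markers summed to 571 to 2290 FPKM in ND and 188 to 308 in HFD, and 5 of 5 were called lower. In CLE and in LU against HFD, 0 of them were called. Liver markers stayed between 2.63 and 35.1 FPKM in sum and epididymis markers between 0 and 5.95, with Lcn5 under 0.1 FPKM in every library. These markers moved in the same comparisons as the genes below, and their part in the results was not tested.

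Levels per transcript length differed widely among the 10 genes. Sod1 had the highest mean in ND and Cat in HFD, CLE and LU, with group means of 255 to 435 FPKM for Sod1 and 284 to 411 for Cat. Prdx1 and Sod3 had means of 217 to 269.6 and 184 to 293 FPKM, and in HFD both stood above Sod1. Nfe2l2, Sod2, Txnrd1 and Keap1 had group means between 18.02 and 46.1 FPKM. Srxn1 had means of 11.1 to 27.3 FPKM, below Keap1 in ND, CLE and LU and above it in HFD, and Nqo1 was lowest in each group with 3.69 to 4.93.

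**Figure D1:**
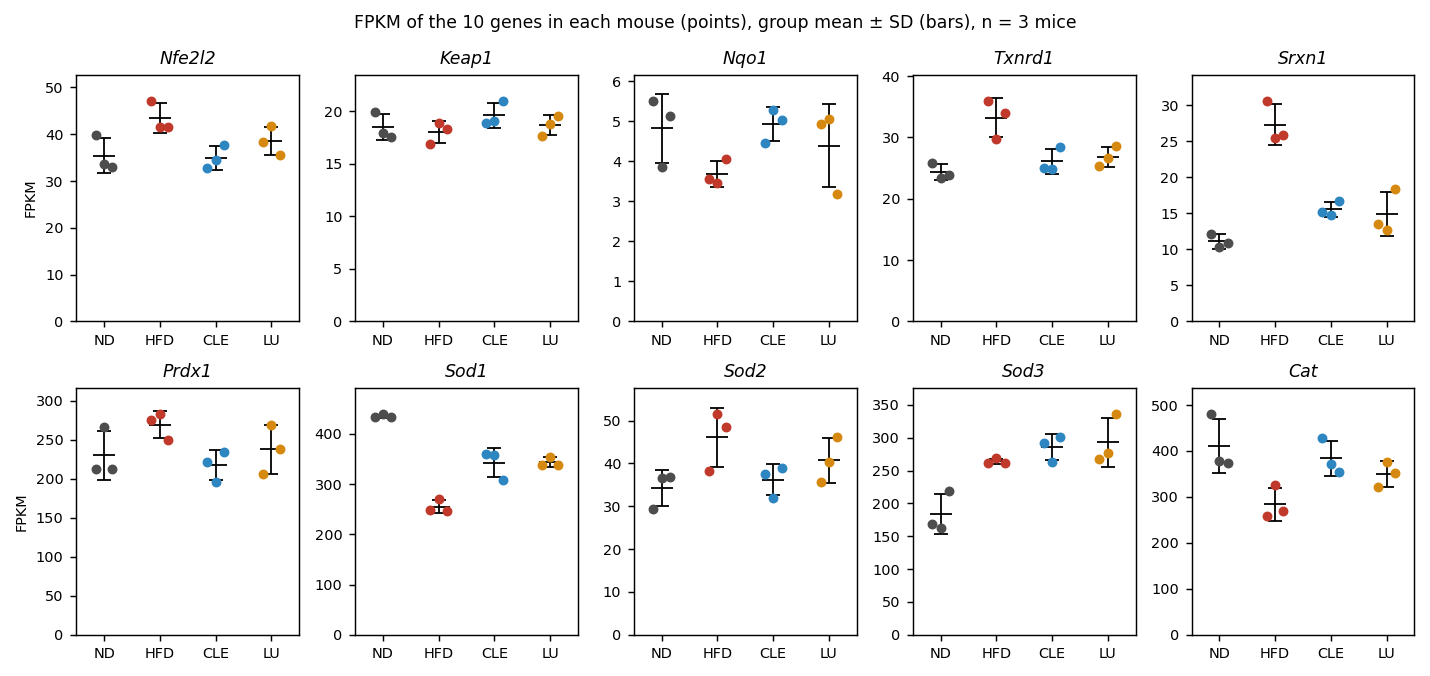
FPKM (vertical axis, from 0) of each of the 10 genes in the ND, HFD, CLE and LU groups (horizontal axis). Points are mice and black bars the group mean ± SD of 3 mice; the 3 HFD mice stand above all 9 other mice for Srxn1 and Txnrd1 and below them for Sod1, while the groups overlap throughout for Keap1.

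The regulator and its inhibitor moved little. Nfe2l2 was at 39.8, 33.6 and 32.998 FPKM in the ND mice, 47.1, 41.6 and 41.5 in the HFD mice, 32.7, 34.4 and 37.8 in the CLE mice and 38.4, 41.7 and 35.6 in the LU mice. Each HFD mouse was above each ND and each CLE mouse, and HFD and LU overlapped. On the log2 scale the difference was 0.29 ± 0.10 (SE, adjusted p = 0.033) for HFD against ND, -0.30 ± 0.10 (adjusted p = 0.038) for CLE against HFD and -0.17 ± 0.10 (adjusted p = 0.25) for LU against HFD, and none reached the fold change of 1.5. Both kept their sign over the 23 alternatives. The adjusted p of the first was 0.14 with the letter R as a covariate. It was 0.066 with quantile normalization and 0.057 with only the 2 groups compared, and 0.012 at its lowest. That of the second ran from 0.024 to 0.14. Leaving out ND mouse 3 or 4 or HFD mouse 12 or 15 put the first over 0.05, with adjusted p of 0.0948, 0.109, 0.126 and 0.0515.

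Keap1, the substrate adaptor that targets NRF2 for breakdown, had group means of 18.5 ± 1.25 FPKM in ND, 18.02 ± 1.003 in HFD, 19.6 ± 1.18 in CLE and 18.7 ± 0.935 in LU (SD, n = 3). Its 12 values lay between 16.9 and 21.0, and no group was separate from another. For HFD against ND the 95% interval of the log2 fold change was -0.21 to 0.15, and for CLE against HFD it was -0.07 to 0.30, which leaves out a change of 1.5-fold in either direction.

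Srxn1, which encodes sulfiredoxin and restores peroxiredoxins that peroxide has overoxidized, had the largest log2 fold change of the 10 genes in HFD against ND, CLE against HFD and LU against HFD. Its level was 12.2, 10.3 and 10.9 FPKM in the ND mice, 30.6, 25.5 and 25.9 in the HFD mice, 15.2, 14.8 and 16.7 in the CLE mice and 13.5, 12.7 and 18.4 in the LU mice. HFD mice were above all others, ND mice were below all others, and CLE and LU overlapped in between. Srxn1 rose with HFD by 1.23 ± 0.13 on the log2 scale against ND (adjusted p = 1.8e-05), a fold change of 2.34. It fell by 0.77 ± 0.13 in CLE (adjusted p = 0.00097) and by 0.85 ± 0.13 in LU (adjusted p = 0.00091) against HFD. All 3 calls held in every alternative, over which the log2 fold change stayed between 1.10 and 1.29 for HFD, between -0.89 and -0.69 for CLE, and at -0.72 or lower for LU. Against ND the remaining difference was 0.45 ± 0.13 in CLE (adjusted p = 0.064) and 0.38 ± 0.13 in LU (adjusted p = 0.081), which was not called. Macrophage markers followed the same order of groups in their sums, except that LU was above CLE.

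Txnrd1, the cytosolic thioredoxin reductase that recharges thioredoxin with NADPH, followed the same direction with a smaller size. The ND mice had 25.9, 23.4 and 24.0 FPKM, the HFD mice 36.0, 29.8 and 34.0, the CLE mice 25.1, 24.8 and 28.5 and the LU mice 25.3, 26.6 and 28.5. Every HFD mouse was above every other mouse, and the other groups overlapped. Its log2 fold change came to 0.43 ± 0.094 for HFD against ND (adjusted p = 0.0028), -0.34 ± 0.094 for CLE against HFD (adjusted p = 0.017) and -0.30 ± 0.094 for LU against HFD (adjusted p = 0.036), each under the fold change of 1.5. The last was over 0.05 in 9 of 23 alternatives, up to 0.15, with an adjusted p of 0.137 without HFD mouse 12, 0.106 without HFD mouse 18, 0.112 without LU mouse 2 and 0.0898 without LU mouse 3. For CLE against HFD it was over 0.05 without HFD mouse 12 or 18 or CLE mouse 2 or 4, with adjusted p of 0.0752, 0.0587, 0.0571 and 0.0651.

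Prdx1, the abundant cytosolic peroxiredoxin on which sulfiredoxin acts, was not called in any comparison. Its group means were 231 ± 31.5 FPKM in ND, 269.6 ± 17.1 in HFD, 217 ± 19.3 in CLE and 238 ± 31.2 in LU (SD, n = 3). Only CLE and HFD were separate, at 196 to 234 against 250.2 to 283 FPKM, and the log2 fold change between them was -0.31 ± 0.12 (adjusted p = 0.073). As a ratio, Srxn1 stood at 5.74, 3.85 and 5.12 FPKM per 100 FPKM of Prdx1 in the ND mice and at 11.1, 9.02 and 10.4 in the HFD mice. It was 6.84, 7.56 and 7.13 in the CLE mice and 6.55, 4.74 and 7.72 in the LU mice. The HFD mice were above all others in this ratio, with an exact two-sided permutation p of 0.1 against each group, the smallest p that 3 mice against 3 can give.

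Nqo1, a quinone reductase long used as a marker of NRF2 activity, did not follow Srxn1 and Txnrd1. It had the lowest level of the 10 genes, with 5.51, 3.86 and 5.13 FPKM in the ND mice, 3.55, 3.46 and 4.06 in the HFD mice, 4.47, 5.29 and 5.05 in the CLE mice and 4.93, 5.06 and 3.19 in the LU mice. HFD was the lowest group by mean and was separate from CLE, and it overlapped with ND and LU. On the log2 scale this was -0.31 ± 0.15 for HFD against ND (adjusted p = 0.11), 0.34 ± 0.15 for CLE against HFD (adjusted p = 0.10) and 0.18 ± 0.15 for LU against HFD (adjusted p = 0.39). LU mouse 8 was the lowest of the 12 mice, and without it the adjusted p was 0.0474 for HFD against ND and 0.0447 for CLE against HFD. Without ND mouse 3 the former was 0.0372. The assembled transcripts of Nqo1 carried much of its sum, and with these left out the adjusted p for HFD against ND was 0.0133.

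The superoxide dismutases parted with HFD. Sod1, the cytosolic copper-zinc enzyme, was at 433, 439 and 434 FPKM in the ND mice, 248, 269.7 and 247 in the HFD mice, 359.9, 359 and 309 in the CLE mice and 339, 355 and 339 in the LU mice. HFD was lowest and ND highest without overlap, and CLE and LU lay between and overlapped with each other. Sod1 fell with HFD by 0.77 ± 0.081 on the log2 scale against ND (adjusted p = 1.7e-05), a fold change of 0.586, and this call held in every alternative. It was higher in CLE than in HFD by 0.42 ± 0.081 (adjusted p = 0.0021) and in LU by 0.43 ± 0.081 (adjusted p = 0.0029), in both cases under the fold change of 1.5, and both stayed under an adjusted p of 0.05 in all 23 alternatives. Against ND it stood at -0.35 ± 0.081 in CLE (adjusted p = 0.035) and at -0.34 ± 0.081 in LU (adjusted p = 0.019). Without ND mouse 2, 3 or 4 the adjusted p for CLE was 0.0731, 0.0807 and 0.0645. For LU it was 0.051, 0.061 and 0.0712 without ND mouse 3, LU mouse 2 or LU mouse 8. With only the 2 groups compared it was 0.151 for CLE and 0.0593 for LU. With the mouse number as a replicate block it was 0.41 and 0.185.

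Sod2, the manganese enzyme of mitochondria, was at 29.5, 36.7 and 36.9 FPKM in the ND mice and 38.2, 51.5 and 48.6 in the HFD mice, a log2 fold change of 0.41 ± 0.14 (adjusted p = 0.029). The groups did not overlap, and the gap between the nearest mice was small, at 36.9 and 38.2 FPKM. CLE mice had 37.5, 32.0 and 38.9 FPKM and LU mice 35.7, 40.4 and 46.1, so that both overlapped with ND and with HFD. Neither differed from HFD past the threshold, with adjusted p of 0.087 for CLE and 0.40 for LU. Without ND mouse 2, HFD mouse 15 or HFD mouse 18, the adjusted p for HFD against ND was 0.11, 0.111 and 0.0904. It was 0.102 with the letter R as a covariate and 0.0515 without the partly matching assembled transcripts.

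Sod3, the enzyme secreted into the extracellular space, was above ND in each group on the high-fat diet. It was at 169, 163 and 219 FPKM in the ND mice, 262, 269 and 262 in the HFD mice, 293, 264 and 301 in the CLE mice and 267, 276.5 and 336 in the LU mice. ND mice were below all 9 mice on the high-fat diets, which overlapped with each other. The log2 fold change against ND was 0.53 ± 0.12 in HFD (adjusted p = 0.0038), 0.65 ± 0.12 in CLE (adjusted p = 0.018) and 0.68 ± 0.12 in LU (adjusted p = 0.0055), and Sod3 was called higher in CLE and LU. Against HFD the difference was 0.11 ± 0.12 for CLE (adjusted p = 0.52) and 0.14 ± 0.12 for LU (adjusted p = 0.42), with 95% intervals of -0.16 to 0.38 and -0.13 to 0.41. The CLE call was lost without the HFD libraries in the fit, at an adjusted p of 0.0555, and without ND mouse 2, ND mouse 3 or CLE mouse 11, with adjusted p of 0.0561, 0.0518 and 0.0608. The LU call was lost without LU mouse 8, where the log2 fold change of 0.57 was under the threshold. HFD against ND was called without ND mouse 4, the column headed MD4, at 0.67.

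As shares of the summed FPKM of the 3 genes, Sod1 made up 68.5%, 68.8% and 62.9% in the ND mice and 45.2%, 45.7% and 44.4% in the HFD mice. The share of Sod3 was 26.8%, 25.5% and 31.8% in ND and 47.8%, 45.6% and 46.9% in HFD, so that Sod3 matched or passed Sod1 only in the latter group by mean. In CLE and LU the mean share of Sod1 was 51.5% and 50.9% and that of Sod3 43.0% and 43.1%. The mean share of Sod2 was 5.25% in ND, 8.14% in HFD, 5.44% in CLE and 5.99% in LU. The sum itself was 653 ± 32.0 FPKM in ND, 565 ± 21.9 in HFD, 665 ± 22.2 in CLE and 678 ± 39.9 in LU (SD, n = 3). The HFD mice were separate from each other group in the shares of Sod1 and Sod2 and in the sum, with an exact two-sided permutation p of 0.1 in each case. These shares are of mRNA and say nothing of enzyme activity.

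**Figure D2:**
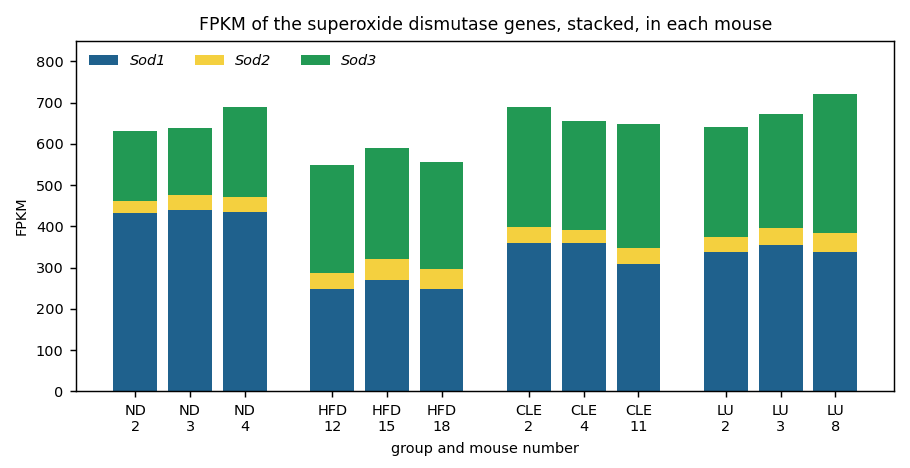
FPKM of Sod1, Sod2 and Sod3 (vertical axis, stacked from 0) in each of the 12 mice (horizontal axis, group and mouse number). The Sod1 part is 433 to 439 FPKM in the ND mice and 247 to 269.7 in the HFD mice, and the Sod3 part is smallest in the ND mice at 163 to 219.

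Cat, the peroxisomal catalase, was at 479.9, 379 and 374 FPKM in the ND mice, 258, 325 and 269 in the HFD mice, 427, 371 and 353 in the CLE mice and 321, 376 and 353 in the LU mice. HFD was separate from ND and from CLE, and it overlapped with LU through HFD mouse 15. On the log2 scale HFD differed from ND by -0.53 ± 0.13 (adjusted p = 0.0049), 0.44 ± 0.13 for CLE against HFD (adjusted p = 0.021) and 0.30 ± 0.13 for LU against HFD (adjusted p = 0.097). None reached the fold change of 1.5. It was passed for HFD against ND without HFD mouse 15, at -0.63, without ND mouse 4, at -0.59, and with the letter R as a covariate, at -0.66 (adjusted p = 0.0024). For CLE against HFD the adjusted p was 0.0829 without HFD mouse 12, 0.0703 without HFD mouse 18 and 0.081 without CLE mouse 2. The adipocyte marker sum had the same order of groups as Cat by its lowest value in each group, with CLE and LU overlapping.

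Over the 10 genes, HFD against ND gave 1 gene called higher, Srxn1, and 1 called lower, Sod1. Among all 12813 genes tested, 14.9% were called higher and 10.8% lower, so 2 of 10 was no more than the background. By the adjusted p alone 7 of the 10 passed, with Nfe2l2, Txnrd1, Srxn1, Sod2 and Sod3 higher and Sod1 and Cat lower, beside 50.5% of all genes. In 7 of 10 the groups did not overlap, beside 59.5% of all genes. The median log2 fold change was 0.26 over the 10 genes and -0.02 over all genes. Leaving out the libraries with the letter R leaves 1 ND mouse, whose spread is assumed to be that of the other groups, so calls are not counted there. In that fit Sod2, Sod3 and Cat were at 0.62, 0.64 and -0.76. With the letter R as a covariate 3 of the 10 were called, which added Cat. That fit called 1936 higher and 1336 lower of all 12813 genes.

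With CLE against HFD, Srxn1 was the 1 gene called, in the lower direction, and 0 were called higher, beside 10.2% and 6.34% of all genes. By the adjusted p from limma alone 5 of 10 passed, with Sod1 and Cat higher and Nfe2l2, Txnrd1 and Srxn1 lower, beside 33.7% of all genes. The groups did not overlap for 7 of 10, beside 50.6%. LU against HFD gave the same single gene in the lower direction and 0 higher, beside 7.68% and 4.77% of all genes. There 3 of 10 passed the adjusted p alone, which were Txnrd1, Srxn1 and Sod1, beside 27.0%, and 3 of 10 did not overlap, beside 47.7%. At an unadjusted p under 0.05 there were 8 of 10 for CLE and 4 of 10 for LU, beside 43.9% and 39.2% of all genes.

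CLE and LU were not told apart in these genes. Of the 10, 0 were called by limma, 0 passed an unadjusted p under 0.05 and 0 were without overlap. Of all genes 0.00780% were called in either direction, 5.21% passed the unadjusted p and 8.99% were without overlap. The largest difference was that of Sod2, with a log2 fold change of -0.16 for CLE against LU (adjusted p = 0.92) and a 95% interval of -0.47 to 0.14. For Srxn1 the interval was -0.21 to 0.36 and for Sod1 it was -0.19 to 0.17. A difference in call between CLE and LU against HFD is therefore not shown to be a difference between the supplements, and the extract and the pure compound were given at different amounts.

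Against ND, Sod3 was the 1 gene called in each of CLE and LU, in the higher direction. The background was 2.11% called higher and 0.874% called lower for CLE and 4.98% and 1.59% for LU. By the adjusted p alone 2 of 10 passed in each, Sod1 and Sod3, beside 5.27% of all genes for CLE and 12.8% for LU. The groups did not overlap for 3 of 10 in each, which were Srxn1, Sod1 and Sod3, beside 24.7% and 30.1%.

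**Figure D3:**
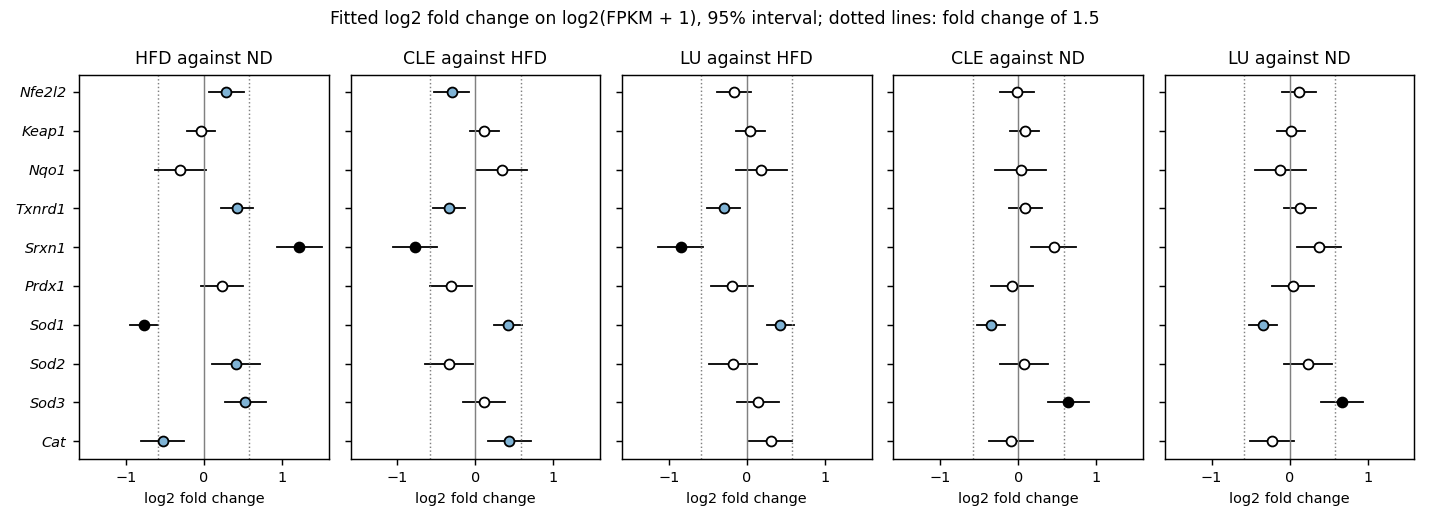
Fitted log2 fold change (horizontal axis, on log2(FPKM + 1)) of the 10 genes in 5 comparisons, with 95% intervals from limma as lines and a fold change of 1.5 as dotted lines. Black points were called, blue points passed the adjusted p alone and white points did neither; Srxn1 is black at 1.23, -0.77 and -0.85 in the first 3 panels and Sod3 is black in the last 2 at 0.65 and 0.68.

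The wider redox list held 67 other genes, of which 66 were tested. The gene left out was Slc7a11, the cystine transporter that feeds glutathione synthesis, at 0.0228 to 0.337 FPKM in the 12 libraries. With HFD against ND, 9 of them rose and 12 fell, beside the 14.9% and 10.8% of all genes given above. Their median log2 fold change was -0.18, beside -0.02 over all genes. With CLE against HFD, 9 of the 66 were called higher and 5 lower, beside 6.34% and 10.2% of all genes, and the median was 0.06 beside 0.01. With LU against HFD, 9 were called higher and 3 lower, beside 4.77% and 7.68%, and the median was 0.08 beside 0.03. Between CLE and LU limma called 0, beside 0.00780% of all genes, with 4 at an unadjusted p under 0.05, beside 5.21%.

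NRF2 targets moved in both directions with diet. Among 23 tested targets other than the 10 genes, 5 were called higher and 4 lower with HFD, beside 14.9% and 10.8% of all genes. Hmox1, the heme oxygenase, was at 13.6, 13.2 and 14.1 FPKM in the ND mice, 68.8, 56.7 and 55.5 in the HFD mice, 18.2, 22.5 and 28.2 in the CLE mice and 26.9, 27.9 and 29.7 in the LU mice. It rose by 2.06 ± 0.14 with HFD and fell by 1.37 ± 0.14 in CLE and by 1.07 ± 0.14 in LU against HFD. Ephx1, an epoxide hydrolase, rose with HFD by 1.33 ± 0.18 and was still called higher than ND in CLE (1.11) and LU (1.25). G6pdx, which makes NADPH in the pentose phosphate pathway, rose by 0.71 ± 0.11. In CLE and LU, Ftl1, the ferritin light chain, fell by 0.92 ± 0.13 and by 0.64 ± 0.13 against HFD. Hmox1 and Ftl1 are also strongly expressed by macrophages, whose markers were highest in sum in HFD, and the part of that in these values was not tested.

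Of the listed glutathione transferases, Gsta4, Gsta3 and Mgst1 were called lower with HFD and higher in CLE and LU against HFD, and Gstm1 was not. Gsta4, which conjugates lipid aldehydes such as hydroxynonenal, was at 21.2, 26.8 and 22.3 FPKM in the ND mice, 2.31, 3.01 and 1.84 in the HFD mice, 13.0, 11.9 and 7.13 in the CLE mice and 9.64, 11.4 and 7.16 in the LU mice. HFD mice were lowest and ND mice highest, and neither group overlapped with CLE or LU. Gsta4 fell by 2.86 ± 0.21 with HFD and rose by 1.76 ± 0.21 in CLE and by 1.61 ± 0.21 in LU. Gsta3 fell by 2.34 ± 0.23 with HFD and rose by 1.43 ± 0.23 and 1.23 ± 0.23. Mgst1 fell by 0.93 ± 0.11 with HFD and rose by 0.64 ± 0.11 in CLE and by 0.65 ± 0.11 in LU. Gstm1, another transferase of the list, went the opposite way without a call, at 0.41 ± 0.14 for HFD against ND (adjusted p = 0.033), and was called higher in LU than in ND at 0.65 ± 0.14. Gclc and Gclm, the subunits of the enzyme that starts glutathione synthesis, were not called. For HFD against ND they were at -0.36 ± 0.095 (adjusted p = 0.0080) and 0.22 ± 0.13 (adjusted p = 0.18), so Gclc passed the adjusted p alone. Me1, a cytosolic source of NADPH, was not called either, at -0.43 ± 0.27.

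The peroxide and thioredoxin groups were also mixed. Of 10 genes for peroxide and superoxide handling beside those above, 1 rose and 3 fell with HFD, beside 14.9% and 10.8% of all genes. Gpx3, the secreted glutathione peroxidase, fell by 2.57 ± 0.24 with HFD, from 399 ± 80.3 to 65.7 ± 9.63 FPKM (SD, n = 3), and rose by 1.49 ± 0.24 in CLE and by 1.27 ± 0.24 in LU. Selenop, the selenium carrier, rose by 0.75 ± 0.096 with HFD, and Gpx8 fell by 0.93 ± 0.14. Gpx1 was not called at -0.30 ± 0.14. Of 23 genes for thioredoxin, peroxiredoxin, glutaredoxin and repair, 2 rose and 5 fell with HFD, beside the same shares of all genes. Sestrins split, since Sesn3 rose by 1.40 ± 0.13 and Sesn1 by 0.77 ± 0.097 while Sesn2 fell by 1.27 ± 0.22. Txnip, the inhibitor of thioredoxin, fell by 1.16 ± 0.13 with HFD and rose by 0.73 ± 0.13 in CLE and by 0.74 ± 0.13 in LU. Txn1 itself was at -0.04 ± 0.11. Glrx, a glutaredoxin, fell by 0.67 ± 0.14 in CLE and by 0.68 ± 0.14 in LU against HFD.

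Among 10 NRF2 regulators, Dpp3, a peptidase that binds KEAP1, was the 1 called with HFD, at 0.60 ± 0.080. Of all genes, 25.7% were called for HFD against ND, 16.5% for CLE against HFD and 12.4% for LU against HFD. Mafk, one of the small MAF partners, was the 1 called in CLE and in LU against HFD, at 0.96 ± 0.22 and 0.78 ± 0.22. Its level was 18.7 to 33.6 FPKM in the ND mice, with a mean of 27.8, and 23.4 ± 6.84 FPKM in HFD, 45.5 ± 6.58 in CLE and 40.0 ± 3.68 in LU (SD, n = 3). HFD against ND was not called, at -0.23 ± 0.22, and neither was CLE (0.72, adjusted p = 0.081) or LU (0.55, adjusted p = 0.14) against ND. No regulator was called by limma against ND in CLE or LU, where 4 and 2 of 10 had an unadjusted p under 0.05, beside 23.3% and 27.7% of all genes. Of all genes, 2.98% and 6.57% were called in these comparisons.

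Against ND, 3 genes of the wider list were called higher and 4 lower in CLE, and 4 higher and 4 lower in LU. Over all genes these shares were 2.11% and 0.874% in CLE and 4.98% and 1.59% in LU. Hmox1 was still called higher, at 0.69 ± 0.14 in CLE and 0.99 ± 0.14 in LU, as was Sesn3 at 0.73 ± 0.13 and 0.97 ± 0.13. Gsta4 was still called lower, at -1.10 ± 0.21 and -1.25 ± 0.21, as was Gpx3 at -1.08 ± 0.24 and -1.30 ± 0.24. Tkt, the transketolase of the pentose phosphate pathway, was called lower than ND in CLE at -0.97 ± 0.19, in LU at -1.01 ± 0.19 and in HFD at -0.92 ± 0.19. For CLE against ND the count rested on single mice, with 3 called without ND mouse 2, 4 without ND mouse 3 and 2 without CLE mouse 11. Of all 12813 genes, 92, 186 and 91 were then called higher and 48, 73 and 37 lower.

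**Figure D4:**
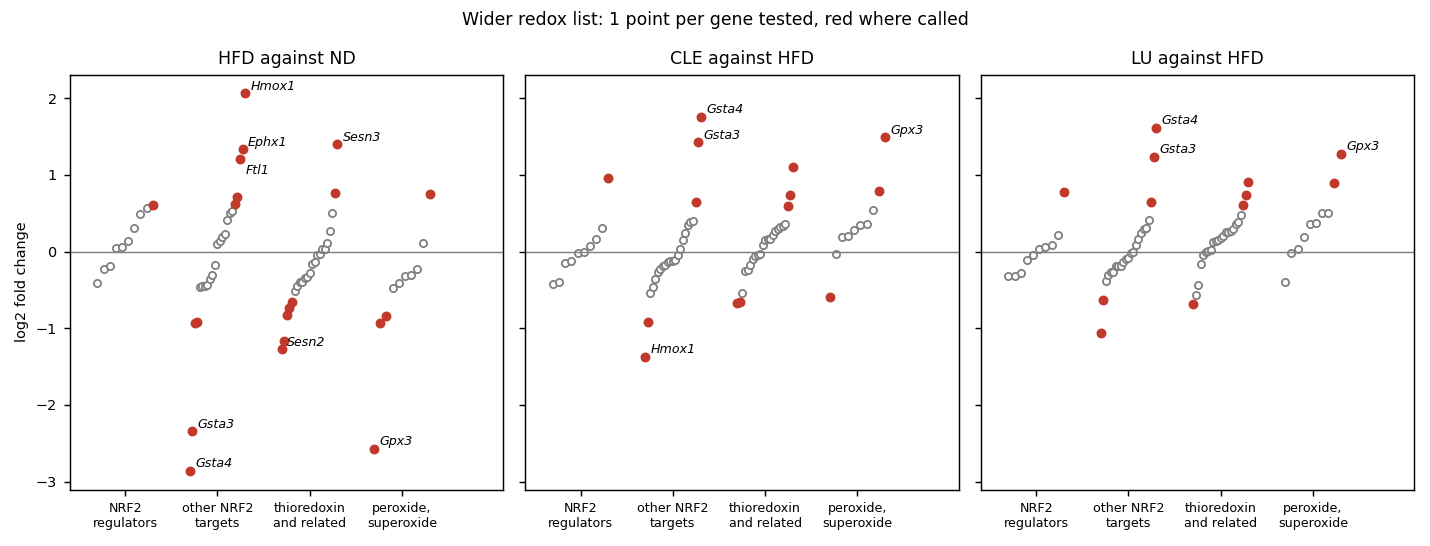
Fitted log2 fold change (vertical axis, on log2(FPKM + 1)) of the 66 tested genes of the wider redox list in 4 groups of genes (horizontal axis, sorted within each), for HFD against ND, CLE against HFD and LU against HFD. Red points were called; Hmox1 stands at 2.06, -1.37 and -1.07 and Gsta4 at -2.86, 1.76 and 1.61, and the last 2 panels share the HFD mice.

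For most of the 10 genes 1 transcript carried most of the FPKM. Sod1 had a single transcript, and the leading transcript held a mean of 96.2% for Nfe2l2, 96.0% for Cat, 87.9% for Txnrd1, 85.0% for Sod3, 76.7% for Srxn1 and 75.8% for Sod2. Prdx1 was divided between ENSMUST00000135573 (61.5%) and ENSMUST00000030454 (33.3%). Sod2 drew 20.3% from an assembled transcript whose end reached base 13037807 of chromosome 17, past the annotated end of its known transcript at 13018119. For Nqo1 the known transcript held 58.8% and an assembled one 38.6%, and for Keap1 the leading transcript held 54.6%. In the annotation Sod1 overlaps Scaf4 on the opposite strand, Keap1 overlaps Gm16754 on the opposite strand, and Txnrd1 overlaps Eid3 on its own strand and Gm38560 and Gm47073 on the opposite one. Nfe2l2 overlaps Gm24996 on its own strand. Whether the counting used strand is not given in the sources used here, so reads in these stretches cannot be told apart.

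The genes whose profile over the 12 libraries was most like that of 4 chosen members are given as a description, since all points share the 4 diets. For Nfe2l2 they were Mcl1, Got1 and Abce1, with Pearson correlations of 0.95, 0.95 and 0.94 on log2(FPKM + 1). For Nqo1 they were Fip1l1, Il6st and Stat5b (0.91, 0.90 and 0.90), and for Cat 5730405O15Rik, Timm29 and Zfp768 (0.96, 0.96 and 0.95). For Sod3 they were Sfrp5, Atp8a1 and Adamtsl2 (0.97, 0.96 and 0.96).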

How the data were processed

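The authors made libraries with a TruSeq RNA kit, sequenced pairs of 100-base reads and deposited FPKM for 152210 transcripts, known and assembled, with the tools CASAVA 1.8.2, TopHat2 2.0.12, Bowtie2 2.2.3 and Cufflinks 2.2.1 named in the submitters' processing notes. Another 3 of the 15 FPKM columns belong to none of the samples and were left out. The file also holds the authors' own comparisons, which were not used.

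Transcripts with an Ensembl ID were summed by gene, named through GENCODE M21 (GRCm38), which held 76916 of the 78786 known transcripts, 87.6% of them with an identical start and end. The genome build is not given in the sources used here. The FPKM steps did not yield whole reads (at best 30.3% to 45.4% of values within 0.1 of a whole number over 2460 genes), so no count test was run.

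Tested were 12813 genes that reached FPKM of 1 in 3 or more libraries, with limma 3.58.1 (R 4.3.3) on log2(FPKM + 1), with 1 coefficient per group and no covariate. Python 3.11.15, pandas 2.3.3, numpy 2.4.6 and matplotlib 3.10.9 were used for tables and plots. The method was tested on simulated data with known changes. Named were all 10 genes, a fixed set of wider genes, per gene group and comparison up to 2 rises and 2 falls by size, and the nearest profiles of 4 genes. Gstm1 and Mgst1 were named beyond this rule, as the other listed glutathione transferases. Members, lists and tests were chosen with earlier results of these data known. Alternatives changed the pseudocount, filter, scaling, moderation, libraries, transcripts, letter R or threshold, each alone. The fit with the mouse number as a block also left out the HFD libraries, so the same libraries were fitted without the block as an alternative chosen after seeing the data.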

Additional observations from a re-analysis of the deposited data

Results flagged for a closer look

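Rbx1, a subunit of the ubiquitin ligase that acts on NRF2, was picked out because its 3 CLE mice lay on one side of the HFD mean and its 3 LU mice on the other. The log2 difference of CLE against LU was -0.17 ± 0.078 (limma adjusted p = 0.90, unadjusted p = 0.049). Prdx4, the peroxiredoxin of the endoplasmic reticulum, was picked out in the same way, with a log2 difference of -0.19 ± 0.12 (limma adjusted p = 0.90). Neither difference passed the test.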

How the results depend on the processing

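No called result changed direction under any alternative. By the adjusted p alone, the counts of called genes were 7, 5 and 3 of the 10 genes and 39, 25 and 24 of the wider list for HFD against ND, CLE against HFD and LU against HFD, and 2 of the 10 against ND in each of CLE and LU, with 14 of the wider list in LU. Beside these stand 50.5%, 33.7% and 27.0% of all genes, and 5.27% in CLE and 12.8% in LU against ND. Without the libraries with the letter R, 1 ND mouse was left, so calls against ND are not counted for that fit. With only the groups compared in the fit, CLE against ND gave 0 of the 10 and 0 of the wider list. That fit called 0 higher and 0 lower of all 12813 genes, so these counts are not particular to the redox genes. Leaving out 1 mouse at a time gave 2 to 4 of the 10 for HFD against ND, 0 to 1 for CLE against ND and 0 to 1 for LU against ND. It gave 2 to 7 of the wider list for CLE against ND. Of all 12813 genes these fits called 1840 to 1968 higher and 1274 to 1498 lower for HFD against ND. For CLE against ND they called 91 to 374 higher and 37 to 131 lower, and for LU against ND 445 to 733 and 128 to 233. The mouse numbers do not mark the same animal and did not pair the libraries (correlations of deviations -0.10 to 0.19 over 5 pairs of libraries with a shared number). With the number as a replicate block over ND, CLE and LU, CLE against ND gave 0 of the 10 and 0 of the wider list, LU against ND gave 0 of the 10, and Sod3 was at 0.56 (adjusted p = 0.26) and 0.63 (adjusted p = 0.10). Of all 12813 genes the block fit called 2 higher and 0 lower for CLE and 334 higher and 80 lower for LU against ND. The block fit also leaves out HFD. Without HFD and without a block, an alternative chosen after seeing the data, CLE against ND gave 0 of the 10 and 4 of the wider list, LU against ND gave 1 and 8, and the adjusted p of Sod3 for CLE was 0.0555. Of all 12813 genes, 109 were called higher and 46 lower for CLE against ND in that fit, and 551 and 159 for LU. HFD shares no number with the other groups, so no paired analysis was possible there. Nqo1 was not tested with a mean FPKM of at least 5. The cause of these changes was not tested.

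Limits are the 3 mice per group, chosen by the authors, the unknown depth of the FPKM, the inferred column of ND mouse 4, the letter R that no HFD library carries, and a whole tissue in which macrophage and adipocyte markers moved with the same groups. The limma p-values set each difference against the spread between these mice, pooled over the groups in the fit and moderated across genes.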
